A study of Mus musculus with 16 samples.

Results

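Foxo1 and Foxo3, with 5 genes whose transcripts were high in FoxO-deleted mice and spread widely from mouse to mouse, were followed through the gastrocnemius arrays of 16 mice: Hsd3b6, Trim59, Lrat, Enpp6 and Trp53i11. These 7 genes are part of 22180 that had a probe set annotated to 1 gene symbol, of which 13601 were bright enough to be tested. The 5 induced genes were chosen on their difference between deletion and control mice and on their gradation among the deletion mice, so their levels, their differences and their correlations in the deletion mice are given as descriptions with no test. Foxo1 has 2 probe sets and the other 6 genes have 1 each. All 7 passed the filter, under which at least 8 of the 16 mice had to exceed their array's median. Hsd3b6 and Lrat passed it through the deletion mice, since their controls lay under the array median in 8 of 8 and 7 of 8 mice.

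All 16 animals were male FVB/n mice homozygous for floxed Foxo1, Foxo3 and Foxo4 alleles, 16 weeks old when killed. Each received 3 injections of pI:pC, an RNA mimic that raises interferon, at 4 to 5 weeks of age. From 7 to 8 weeks of age they ate a high-fat diet for 8 weeks, of which 58% was fat, 16.4% protein and 25.5% carbohydrate. The 8 deletion mice carried Mx1-Cre, in which an interferon-responsive promoter drives the recombinase, and the 8 controls were Cre-negative littermates. The labels call the controls wild type, although they carry the floxed alleles, and call the deletion endothelial-directed. The Mx1 promoter also acts in other interferon-responsive cells, blood-forming cells among them. Every deletion mouse carried Cre and no control did, so Cre itself and the loss of FoxO cannot be told apart. Total RNA of the whole muscle was hybridised to 1 array per mouse, and values are log2 expression, on which 1 unit is a doubling.

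FoxO proteins are forkhead transcription factors that insulin and growth factor signalling keeps out of the nucleus through AKT. In muscle they are known for switching on genes of protein breakdown and autophagy when insulin is low. In endothelial cells they restrain growth and vessel formation, and in red cell precursors FOXO3 supports maturation and protection from oxidants. Hsd3b6 encodes a 3-beta-hydroxysteroid dehydrogenase of steroid hormone synthesis. Lrat encodes the enzyme that esterifies retinol for storage. Enpp6 encodes a choline-releasing phosphodiesterase found in the oligodendrocyte lineage and other cells, Trim59 an E3 ubiquitin ligase of the tripartite motif family, and Trp53i11 a p53-inducible protein.

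The stretches just upstream of Foxo3, Hsd3b6 and Trim59, whose levels followed a shared order over the deletion mice, and of Enpp6, which kept its own, are shown as RefSeq gives them on GRCm38.p6. Each is the 250 bases before the annotated start, 5′ to 3′, with capitals marking the motifs found.
Foxo3 (chr10:42276696-42276945, minus strand): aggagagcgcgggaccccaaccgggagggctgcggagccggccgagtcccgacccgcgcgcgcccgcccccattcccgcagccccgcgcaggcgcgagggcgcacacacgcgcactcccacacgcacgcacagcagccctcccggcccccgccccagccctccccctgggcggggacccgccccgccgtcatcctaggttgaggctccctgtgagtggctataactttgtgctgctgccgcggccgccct
Hsd3b6 (chr3:98814444-98814693, minus strand): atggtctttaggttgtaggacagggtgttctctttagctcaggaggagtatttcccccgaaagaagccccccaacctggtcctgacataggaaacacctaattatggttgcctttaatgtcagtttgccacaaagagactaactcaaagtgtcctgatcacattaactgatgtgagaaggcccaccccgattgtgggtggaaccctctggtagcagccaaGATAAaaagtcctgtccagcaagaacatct
Trim59 (chr3:69044743-69044992, minus strand): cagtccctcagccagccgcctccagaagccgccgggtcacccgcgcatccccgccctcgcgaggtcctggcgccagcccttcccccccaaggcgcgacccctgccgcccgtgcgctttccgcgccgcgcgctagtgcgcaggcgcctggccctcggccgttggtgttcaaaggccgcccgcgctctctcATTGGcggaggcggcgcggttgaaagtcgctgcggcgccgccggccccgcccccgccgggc
Enpp6 (chr8:46986637-46986886, plus strand): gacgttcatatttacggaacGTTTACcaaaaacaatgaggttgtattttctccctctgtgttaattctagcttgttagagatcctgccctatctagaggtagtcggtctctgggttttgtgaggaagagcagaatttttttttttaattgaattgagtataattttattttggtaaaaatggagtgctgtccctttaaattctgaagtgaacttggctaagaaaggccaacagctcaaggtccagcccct

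All 7 genes had such a stretch in the table, which holds 32851 promoters, and 6 motifs were searched on both strands. The FoxO consensus GTAAACA was in 0 of the 7 and in 3.17% of all promoters, and its shorter core GTAAAC, which the longer motif contains, in 1 of the 7 and 6.92% of all. The match is the GTTTAC of Enpp6, on the reverse strand, starting at position -230 from the start. The insulin response motif CAAAACA (5.56% of all) and TATAAA (12.4%) were in 0 of the 7. CCAAT (33.8%) was in Foxo1, Trim59 and Lrat, and GATAA (22.6%), the core bound by GATA factors, was in Hsd3b6 at position -30. The GC content of the Foxo3, Hsd3b6 and Trim59 stretches was 76.4%, 47.2% and 77.6%, and that of Enpp6 38.4%, against a median of 52.4%. A match is only a run of letters, and elements outside these windows were not examined.

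Of the 13601 genes tested with limma, 249 differed between the groups at an adjusted p under 0.05, which is 1.83% of them, 208 higher and 41 lower in deletion mice. With arrays centred on their medians the split was 126 higher and 67 lower, and after a further quantile normalization 155 and 59. Deletion mouse 8 stood apart from its group: on the leading principal component, which held 22.9% of the variance, it scored -14.7, among the controls (-15.7 to -0.19) and outside the range of the other deletion mice (5.68 to 21.9). Left out, it raised the count to 680 genes, while leaving out any 1 of the other 15 mice gave 107 to 239. Counts over 1.5 times below 249 came without control 1, 2, 3, 5, 6 or 7 (129 to 160) or deletion mouse 1, 2, 5, 6 or 7 (107 to 162). The differences below are therefore given with and without mouse 8.

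The targeted genes come first. Foxo1, on its brighter probe set, read 7.38, 7.31, 7.25, 7.23, 7.34, 7.28, 7.22 and 7.30 in controls 1 to 8. In deletion mice 1 to 8 it read 7.25, 7.30, 7.05, 8.23, 7.41, 7.25, 7.22 and 7.18. Mouse 4 stood far above every other animal, and the remaining deletion mice lay on both sides of the controls. The group difference was 0.072 (SE 0.12, n = 8 and 8), and -0.052 (SE 0.06) without mouse 4. The second, dimmer Foxo1 probe set showed no such peak: its controls ran from 5.72 to 6.16, the deletion mice from 5.68 to 6.17, and mouse 4 and mouse 5 shared the top at 6.17. Its difference was -0.031 (SE 0.08). The 2 probe sets correlated at r = 0.72 over the deletion mice and r = -0.20 over the controls, so they disagree on how Foxo1 varied among the controls.

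Foxo3, also a target of the deletion, was higher in most deletion mice. The controls read 5.19, 5.50, 5.32, 5.45, 5.19, 5.34, 5.40 and 5.66, and deletion mice 1 to 8 read 5.73, 5.80, 5.82, 6.66, 5.83, 6.23, 5.51 and 5.42. Mice 7 and 8 lay within the control range, and the other 6 lay above every control. The mean went from 5.38 ± 0.16 (SD, n = 8) to 5.88 ± 0.40 (SD, n = 8), a difference of 0.50 (SE 0.14), or 1.41-fold. It was 0.56 (SE 0.13) without mouse 8 and 0.38 (SE 0.10) without mouse 4. Foxo4, the remaining floxed gene, went from 7.42 ± 0.15 to 7.18 ± 0.26 (SD, n = 8 each), a difference of -0.24 (SE 0.10), with 5 of 8 deletion mice below all controls. Foxo6, which is not floxed, differed by -0.19 (SE 0.08), and in limma's test neither passed the threshold (adjusted p = 0.236 for Foxo4 and 0.215 for Foxo6). Whether any of these probe sets lies in the exons removed by Cre was not analysed here, so they do not check the deletion.

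Hsd3b6 differed most. Its controls read 3.20, 1.99, 3.53, 3.25, 2.98, 3.81, 3.47 and 2.18, all under the array median, and these readings count as floor. Deletion mice 1 to 8 read 7.58, 8.00, 8.63, 10.31, 8.67, 9.79, 7.48 and 5.94. The groups did not overlap: even mouse 8, the lowest of its group, was above every control. Taking the control level as 4.55, the mean of the control arrays' medians, the deletion mean of 8.30 ± 1.38 (SD, n = 8) was at least 13.4-fold higher. Without mouse 8 the bound was 17.0-fold. A floor at each array's 25th percentile instead gave at least 29.7-fold. Within the deletion group the highest and lowest mice differed by 20.7-fold.

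Relatives of Hsd3b6 were at the floor or did not pass the test. Hsd3b1, Hsd3b2, Hsd3b3 and Hsd3b5, its neighbours in a gene cluster on chromosome 3, were under the array median in all 16 mice, with deletion means of 2.61, 3.56, 3.02 and 3.05. Hsd3b7, a bile acid enzyme encoded on chromosome 7, went from 5.68 ± 0.25 to 5.95 ± 0.19 (SD, n = 8 each; limma adjusted p = 0.199). Over all genes, 17.3% had an unadjusted p under 0.05 in limma. Of 16 other steroid synthesis genes tested, 0 rose and 0 fell in limma (1 rose without mouse 8), 3 had an unadjusted p under 0.05, and the median difference was 0.03 against 0.001 over all genes. Star, the cholesterol carrier of steroid-producing cells, read 4.63 in controls and 4.83 in deletion mice (limma adjusted p = 0.273). Of 6 markers of steroid-producing cells tested 0 changed in limma, 2 had an unadjusted p under 0.05, and 5 of the 11 with a probe set were under the median on all arrays. Star, Cyp11a1, Fdx1 and Nr5a1 were tested in both lists, so these counts overlap. Close copies within a family can share probe sequences, and how far the Hsd3b6 probe set reads its relatives was not tested.

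Trim59 was graded over nearly the same order of mice. Controls read 6.00, 5.12, 5.43, 5.67, 5.82, 6.00, 5.20 and 5.05. Deletion mice 1 to 8 read 6.88, 7.15, 7.19, 9.30, 7.03, 8.80, 6.76 and 5.46. Mouse 8 lay inside the control range, the other 7 above it, and mice 4 and 6 stood well clear of the rest. The difference was 1.79 (SE 0.39), 3.45-fold, and 2.05 (SE 0.33) without mouse 8. Of 39 other tripartite motif genes tested, 0 rose and 0 fell in limma, with 7 at an unadjusted p under 0.05, and the smallest p belonged to Trim26 (difference 0.20, SE 0.07, limma adjusted p = 0.163).

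Lrat was at or near the floor in controls, at 3.64, 4.03, 4.05, 3.98, 4.57, 4.16, 3.95 and 4.21. Only control 5 was above its array median. Deletion mice 1 to 8 read 6.08, 5.61, 5.43, 7.17, 5.86, 5.87, 4.70 and 4.50, with mouse 8 below control 5 and the other 7 above every control. With readings under the median set to it, the deletion mice were at least 2.15-fold higher, and at least 2.39-fold without mouse 8. Among 26 other retinoid genes tested in limma, 1 rose and 0 fell (2 and 2 without mouse 8). The riser was Fabp5, a fatty acid and retinoic acid carrier, from 5.20 to 6.30 (difference 1.11, SE 0.13, adjusted p = 1.49e-04), above every control in 8 of 8 deletion mice. Without the 6 mice with liver transcripts described below, its limma adjusted p was 0.089. Stra6, the retinol uptake receptor, had the smallest p of the rest, at a difference of -0.27 (SE 0.08, limma adjusted p = 0.077).

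Enpp6 separated the groups without overlap and with a narrower spread. Controls read 5.22, 5.46, 5.24, 5.59, 4.64, 4.90, 5.13 and 5.64. Deletion mice 1 to 8 read 7.37, 7.27, 7.04, 6.49, 7.40, 7.30, 6.41 and 6.33. The deletion mice fell into 5 animals at 7.04 to 7.40 and 3 (mice 4, 7 and 8) at 6.33 to 6.49. The difference was 1.72 (SE 0.18), 3.30-fold, and 1.81 (SE 0.17) without mouse 8. Among 23 other genes of choline handling and the ENPP family, 0 rose and 0 fell in limma, with 5 at an unadjusted p under 0.05, and 1 rose and 1 fell without mouse 8. Gpcpd1, a glycerophosphocholine phosphodiesterase, was closest (difference -0.38, SE 0.10, limma adjusted p = 0.060), and 1 gene of the list fell when arrays were centred on their medians. Of 6 other oligodendrocyte genes tested 0 changed in limma, and 0 had an unadjusted p under 0.05.

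Trp53i11 was well expressed in both groups. Controls read 7.82, 7.59, 7.78, 8.49, 8.05, 7.89, 7.90 and 8.04, and deletion mice 1 to 8 read 9.87, 9.62, 9.27, 9.69, 9.50, 8.83, 8.27 and 8.41. Mice 7 and 8 lay under control 4, and the other 6 lay above every control. The difference was 1.24 (SE 0.21), 2.36-fold, and 1.35 (SE 0.20) without mouse 8. Of 32 other p53 target genes tested in limma, 1 rose and 0 fell: Plk2, a polo-like kinase, went from 6.73 to 7.45 (difference 0.72, SE 0.08, adjusted p = 6.36e-05), above every control in 8 of 8 deletion mice. Without mouse 8, control 4 or control 8, 2 of the 32 rose. Apaf1, the scaffold of the apoptosome, had the next smallest p (difference 0.37, SE 0.10, limma adjusted p = 0.076).

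**Figure D1:**
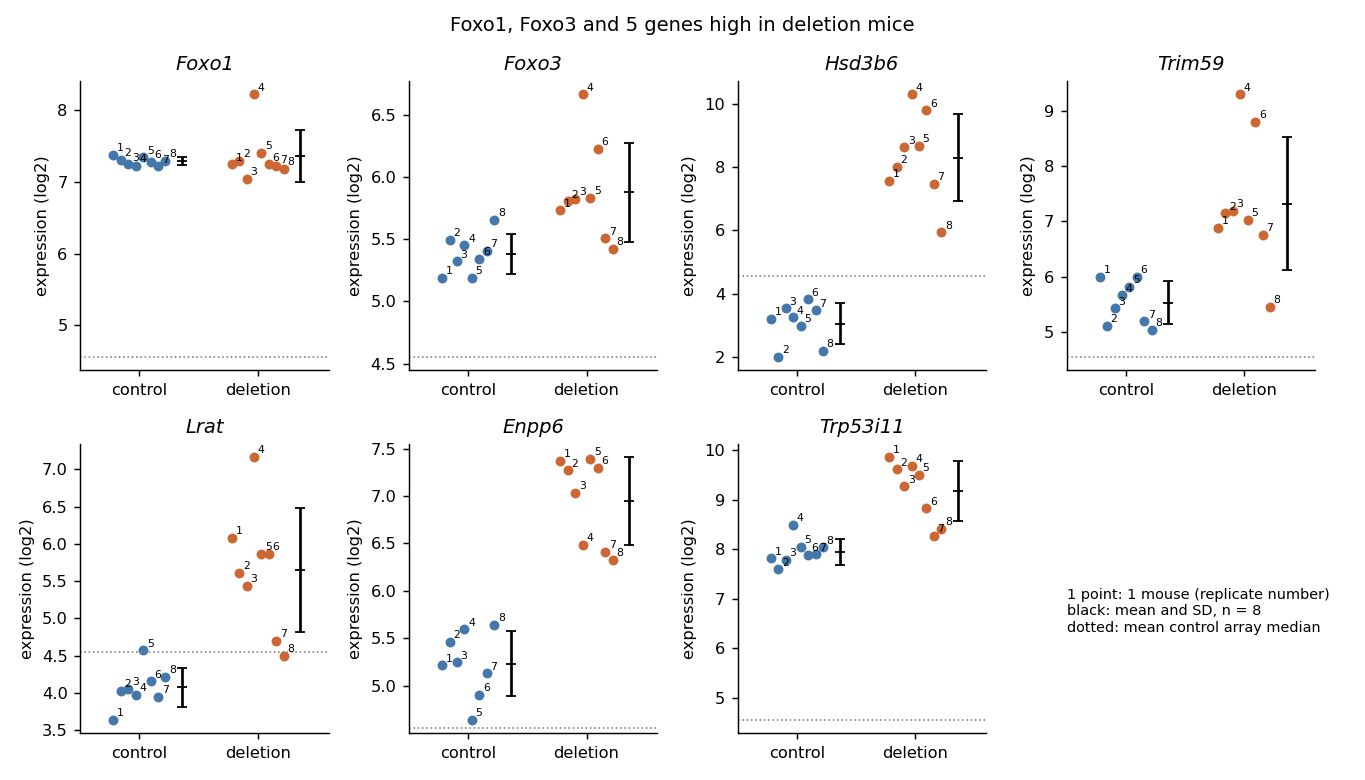
Log2 expression of the 7 genes in each mouse, with 1 panel per gene, control mice in blue and deletion mice in orange, each point marked with its replicate number and the mean and SD (n = 8) in black. The dotted line is the mean control array median of 4.55. Hsd3b6 and Enpp6 separate the groups completely, mouse 8 is the lowest deletion mouse in 5 of the panels, and mouse 4 alone is high for Foxo1.

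Across the 7 genes, 2 (Hsd3b6 and Enpp6) had every deletion mouse above every control, against 33 of all 13601 genes (0.243%), a separation that the choice of genes used. Without mouse 8 it held for 4 of the 7, but the matching share of all genes was not counted. More of all genes passed in limma without that mouse, so the rise is not particular to the members. For the 5 genes whose controls were above the floor, the SD was larger in the deletion mice than in the controls. The ratio of the SDs was 6.54 for Foxo1, which rests on mouse 4, 3.10 for Trim59, 2.53 for Foxo3, 2.29 for Trp53i11 and 1.35 for Enpp6. Hsd3b6 and Lrat have no such ratio, since floor readings have no order. The median ratio over all genes was 1.17.

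The order of the deletion mice was shared by several of the genes. Ranked from the highest, Foxo3 and Hsd3b6 gave the 8 mice the same order: mice 4, 6, 5, 3, 2, 1, 7 and 8 (Spearman's rho = 1.00, Pearson's r = 0.92). Trim59 followed both, with r = 0.95 and rho = 0.93 against Foxo3 and r = 0.96 and rho = 0.93 against Hsd3b6. Lrat followed Foxo3 with r = 0.90 and rho = 0.74. Of the 21 pairs among the 7 genes, 6 had r over 0.8, namely the 6 pairs of Foxo3, Hsd3b6, Trim59 and Lrat. Among 12609 genes compared, Trim59 ranked 21, Hsd3b6 43 and Lrat 82 for r with Foxo3 in the deletion mice, and the 99th percentile of all genes was 0.85. The genes were chosen for such a gradation, so these values carry no test. The upstream stretch printed for Foxo3 held none of the 6 motifs, so it could share none with those of Hsd3b6 and Trim59. Whether these genes have a common regulator was not tested.

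The correlations of Foxo3 with Hsd3b6 and Trim59 stayed high when either of 2 pairs of mice was left out. Without mice 4 and 8, r with Foxo3 was 0.93 for Hsd3b6 and 0.93 for Trim59, while for Lrat it was 0.61. Without the 2 mice farthest from the Foxo3 median (4 and 6), r was 0.90 for Hsd3b6, 0.85 for Trim59 and 0.87 for Lrat. Neither check removed all the extremes. Mouse 6 was kept without mice 4 and 8, and mice 7 and 8 were kept without mice 4 and 6. In mice 1, 2, 3 and 5 Foxo3 spanned only 5.73 to 5.83, where Hsd3b6 kept its order and Trim59 did not. The link of Foxo1 with Foxo3 (r = 0.79) rested on mouse 4, without which it was 0.17.

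Enpp6 and Trp53i11 kept other orders. Enpp6 had r = 0.10 with Foxo3, because mouse 4, the highest for Foxo3, Hsd3b6, Trim59 and Lrat, ranked 6 of 8 for Enpp6. Without mouse 4, r between Foxo3 and Enpp6 was 0.76, and without mouse 8 it was -0.20, so a single animal sets its sign. Lrat and Enpp6 showed the same dependence, at r = 0.31 over 8 mice and 0.98 without mouse 4. Trp53i11 was nearest to Lrat (r = 0.78, rho = 0.79) and weaker with Foxo3 (r = 0.48, rho = 0.40). Mice 7 and 8 were the 2 lowest for Foxo3 and for all 5 induced genes, mouse 8 the lowest in each except Trp53i11.

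**Figure D2:**
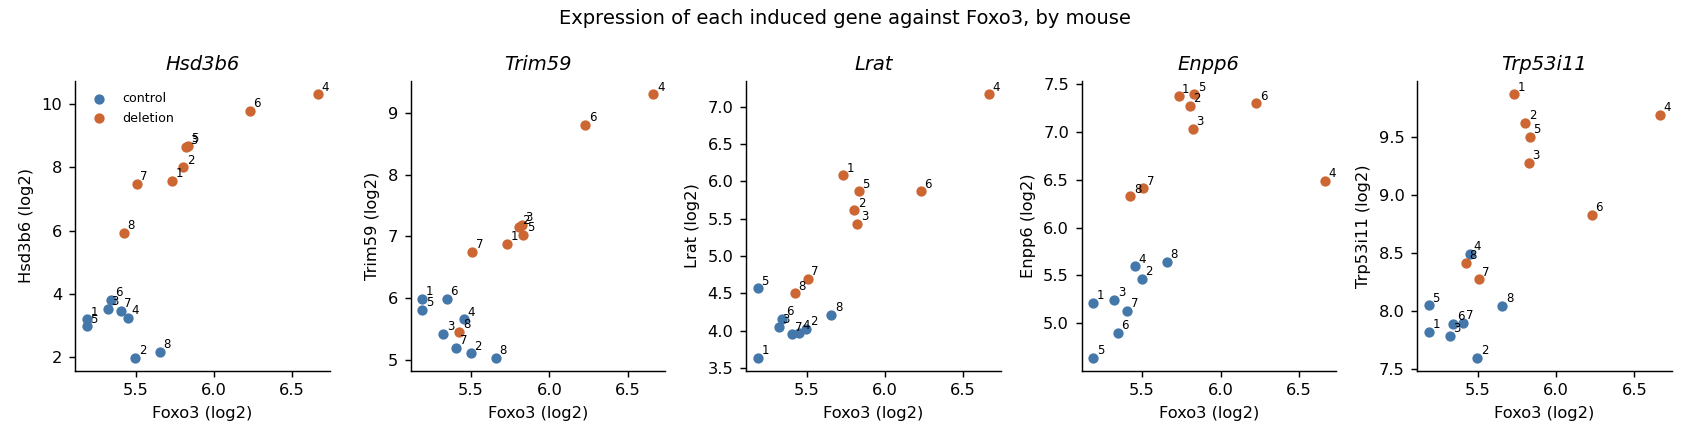
Log2 expression of each induced gene (vertical axes) against Foxo3 (horizontal axes), 1 point per mouse with its replicate number, controls in blue and deletion mice in orange. Hsd3b6, Trim59 and Lrat climb with Foxo3 among the deletion mice, whereas mouse 4 lies far to the right and low for Enpp6.

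The controls could be examined for fewer genes, since Hsd3b6 and Lrat were at the floor there. Foxo1, Foxo3, Trim59, Enpp6 and Trp53i11 were expressed over the median of the array in 5 or more of the 8 controls and entered 10 pairs. Each pair was tested by a two-sided exact permutation test over all 40320 pairings of the 8 mice. Foxo3 and Trim59, which followed each other in the deletion mice, ran opposite ways in the controls (r = -0.78, rho = -0.83, exact p = 0.021, Benjamini-Hochberg adjusted 0.126). Foxo3 and Enpp6 ran the same way (r = 0.77, rho = 0.71, exact p = 0.025, adjusted 0.126). Of the 10 pairs, 2 had a raw exact permutation p under 0.05 and 0 passed after adjustment. With ranks in place of values, 1 pair had a raw exact p under 0.05 and 0 passed. Without the 2 controls farthest from the Foxo3 median (1 and 8), r was -0.59 for Trim59 (exact p = 0.221) and 0.88 for Enpp6 (exact p = 0.021). Whether the correlations differ between the groups was not tested.

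**Figure D3:**
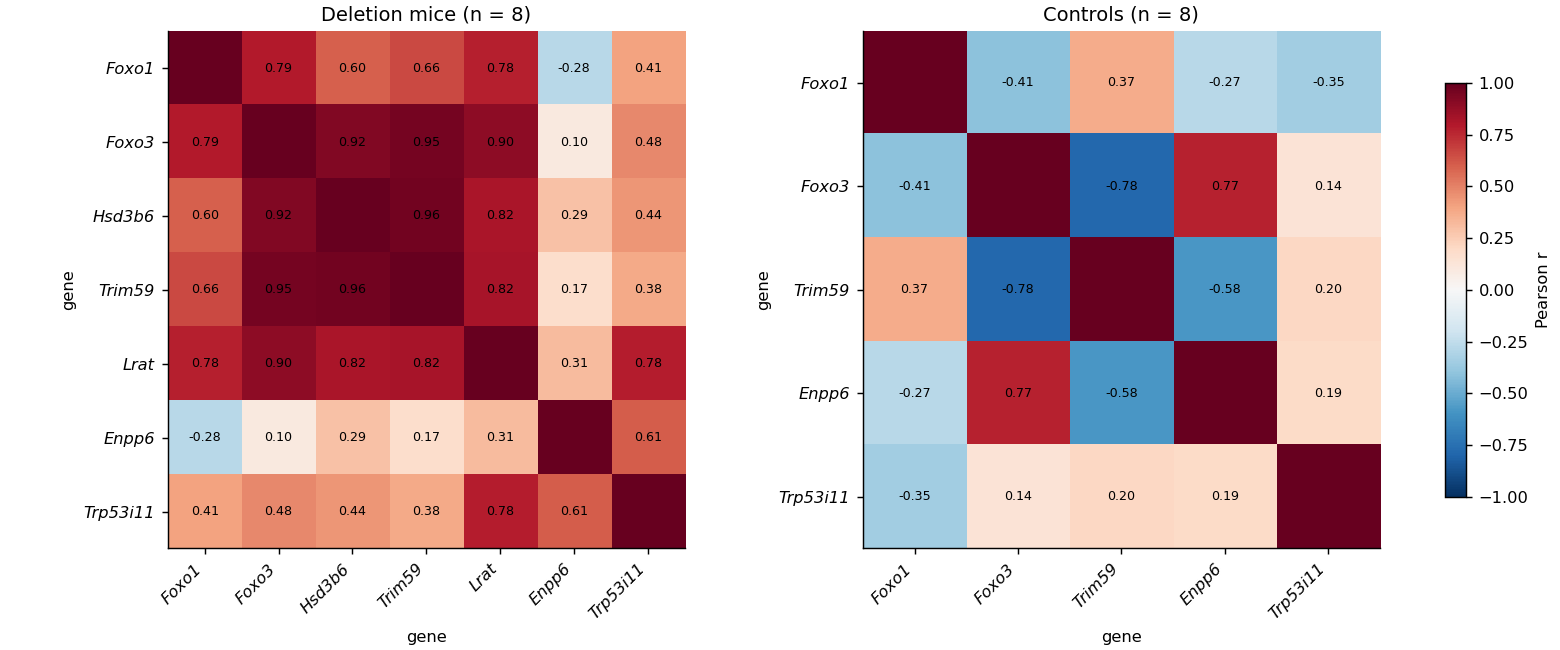
Pearson's r between the genes over the 8 deletion mice (left, 7 genes) and over the 8 controls (right, the 5 genes above the array median in at least 5 controls), red for positive and blue for negative values. The block of Foxo3, Hsd3b6, Trim59 and Lrat is red on the left, and Foxo3 with Trim59 is 0.95 on the left and -0.78 on the right.

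The genes most like each member over all 16 mice were named by their r, leaving out predicted genes. Nearest to Trim59 were Slc4a1 (r = 0.95), the anion exchanger band 3 of red cells, Car2 (r = 0.95), a carbonic anhydrase abundant in them, and Ncoa4 (r = 0.95), the cargo receptor for ferritin. In the controls alone r with Trim59 was 0.93 for Slc4a1, 0.90 for Ncoa4 and 0.51 for Car2. In the deletion mice alone it was 0.95, 0.95 and 0.97. The genes were picked over all 16 mice, these controls among them, so the control values are not an independent check. Slc4a1 read 6.44, 5.60, 6.05, 6.48, 6.29, 7.11, 5.57 and 5.42 in controls and 6.71, 7.43, 7.45, 10.18, 8.30, 9.11, 6.54 and 5.62 in deletion mice 1 to 8. Mice 4 and 6 were again the highest and mouse 8 the lowest.

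Nearest to Foxo3 over 16 mice were Zc3hav1 (r = 0.94), an antiviral zinc finger protein, Car2 (r = 0.91) and Fam107a (r = 0.90). Over the 8 deletion mice alone they were Trim10 (r = 0.98), which acts in red cell development, Gda (0.98), Zc3hav1 (0.97), and the ubiquitin-conjugating enzymes Ube2o and Ube2c (0.97 each). Ube2o is known for clearing proteins from maturing red cells. Snrpc ran most nearly opposite (r = -0.99). In the controls r with Foxo3 was -0.37 for Trim10, -0.54 for Gda, -0.45 for Ube2o and -0.37 for Ube2c, and 0.31 for Zc3hav1.

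Red cell transcripts were set beside the members, using a list of 30 textbook red cell genes that was added after these values were seen and that leaves out the genes just named. Of the 30, 22 had a probe set of their own and 18 could be tested. In limma 0 of the 18 rose and 0 fell, and the mean level of the 22 was 5.79 to 6.15 in controls and 5.82 to 6.99 in deletion mice, 3 of which lay above all controls. Mouse 4 was highest at 6.99, mouse 6 next at 6.54, and mouse 8 lowest at 5.82. Over the deletion mice this mean had r = 0.95 with Foxo3 (rho = 0.98), 0.92 with Trim59, 0.89 with Hsd3b6, 0.83 with Foxo1 and 0.77 with Lrat, but -0.09 with Enpp6 and 0.25 with Trp53i11. Without mice 4 and 6, r was 0.61 for Foxo3, 0.61 for Trim59, 0.79 for Hsd3b6, 0.47 for Foxo1 and 0.34 for Lrat. In the controls r was 0.73 for Trim59, -0.54 for Foxo3 and -0.77 for Enpp6. Single genes of the list varied. Over the deletion mice r with Foxo3 was -0.57 for Tal1, -0.49 for Gfi1b and -0.34 for Klf1. All others were positive, from 0.09 for Hemgn to 0.96 for Epb42.

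With the red cell mean as a covariate, a setting added after the data were seen, the group differences of Foxo3 and Trim59 became smaller. Foxo3 went from 0.50 to 0.28 (SE 0.10), 1.77 times smaller, and Trim59 from 1.79 to 1.07 (SE 0.20), 1.67 times smaller. Hsd3b6 and Lrat, with their controls at the floor, have no defined size here. Enpp6 (1.79, SE 0.20) and Trp53i11 (1.14, SE 0.23) moved by 0.07 and -0.10. Foxo1 changed sign, to -0.11 (SE 0.09). The fit gave both groups a common slope, although r of Foxo3 with the red cell mean was 0.95 in deletion mice and -0.54 in controls. The red cell mean itself averaged 5.92 in controls and 6.18 in deletion mice. The adjusted differences are therefore only descriptions, that of Foxo3 above all. The part of red cells in the results was not tested beyond these values.

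**Figure D4:**
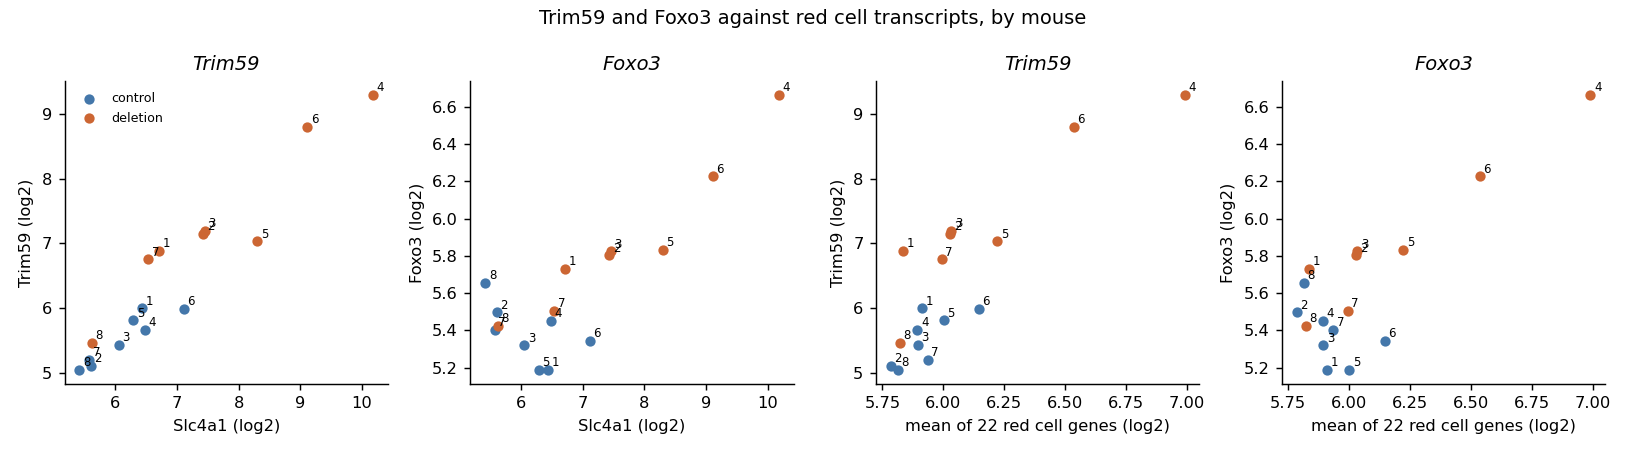
Trim59 and Foxo3 (vertical axes, log2) against Slc4a1 and against the mean of 22 red cell genes (horizontal axes, log2), 1 point per mouse with its replicate number, controls in blue and deletion mice in orange. Trim59 climbs with Slc4a1 in both groups (r = 0.93 in controls and 0.95 in deletion mice), and r of Foxo3 with the red cell mean is 0.95 in the deletion mice and -0.54 in the controls.

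The single high Foxo1 value was in mouse 4. Nearest to Foxo1 over 16 mice were Pim1 (r = 0.91), a kinase, Fkbp5 (r = 0.90), a chaperone induced by glucocorticoids, and Cd24a (r = 0.90). Fkbp5 read 8.04 in mouse 4, 7.01 in mouse 5 and at most 6.69 in the other animals. A list of 15 glucocorticoid-responsive genes, Fkbp5 among them and also added after values were seen, averaged 8.80 in mouse 4, against 7.54 to 8.09 in the other deletion mice and 7.57 to 7.95 in controls. Its mean had r = 0.95 with Foxo1 over the deletion mice and 0.92 without mice 4 and 8, and 0.66 over the controls (-0.01 without controls 1 and 7). Over the deletion mice it also had r = 0.89 with Foxo3, 0.88 with Lrat, 0.83 with Trim59 and 0.80 with Hsd3b6. Without mice 4 and 8 these were 0.42, 0.46, 0.32 and 0.37. Of the 15, 1 rose and 0 fell in limma: Mertk, also on the macrophage list (difference 0.42, SE 0.08, adjusted p = 0.014). Tsc22d3, Ddit4, Pdk4 and Fbxo32 are also on the list of FoxO targets used below, and Sgk1 on that of upstream regulators. Over the deletion mice their r with Foxo1 ran from 0.67 for Pdk4 to 0.93 for Fbxo32. The lists thus overlap, and the part of a glucocorticoid signal in these values was not tested.

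For the other members the nearest genes over 16 mice mixed both groups, so they reflect the group difference as well as the gradation. Hsd3b6 was most like Plk2 (r = 0.95), Fabp5 (0.92) and Igfbp7 (0.91), a secreted protein of vessel walls. Within the deletion mice alone these had r = 0.65, 0.66 and 0.80. Lrat was most like Trpm3 (0.91), Prkch (0.91) and Smox (0.91), with r = 0.87, 0.88 and 0.93 within the deletion mice. The controls of Hsd3b6 (8 of 8) and Lrat (7 of 8) gave floor readings, which have no order. Over 16 mice the r of these 2 genes therefore rests on the group difference and on the deletion mice. Trp53i11 was most like Trpm3 (0.93), Fli1 (0.90), an endothelial transcription factor, and Tll1 (0.89). Enpp6 was most like Asap1 (0.93), Vcam1 (0.93), the leukocyte adhesion molecule of endothelium, and Ednrb (0.92), the endothelin B receptor. Within the deletion mice r with Enpp6 was 0.72 for Asap1, 0.87 for Vcam1 and 0.85 for Ednrb.

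Cell type markers moved between the groups beside the members. Of 34 endothelial markers tested 15 rose and 0 fell in limma (median difference 0.42), and of 20 macrophage and monocyte markers 5 rose and 0 fell (median 0.46), against a median of 0.001 over all genes. Leaving out 1 mouse at a time gave 7 to 19 endothelial and 3 to 7 macrophage genes, the fewest endothelial ones without deletion mouse 6. With the red cell covariate 6 and 1 rose, at median differences of 0.39 and 0.54. Without the 6 mice with high Alb 1 and 0 rose, at medians of 0.26 and 0.54. That setting leaves 6 controls and deletion mice 3, 6, 7 and 8, and few genes of any kind passed in it. In whole tissue, more cells of a type and more RNA per cell cannot be told apart. The endothelial mean ran from 6.91 to 7.17 in controls and from 7.07 to 7.67 in deletion mice, with r = 0.64 for Enpp6, 0.44 for Hsd3b6 and 0.28 for Foxo3 over the deletion mice. Of 20 muscle fibre genes 0 changed in limma, with 0 at an unadjusted p under 0.05. Of 6 neutrophil and red cell markers tested 1 rose and 0 fell (median difference 0.38): S100a8, a neutrophil calprotectin subunit, at 1.28 (SE 0.27, limma adjusted p = 0.023), with 3 rising without mouse 8. The mean of the 13 with a probe set ran from 4.16 to 4.30 in controls and from 4.26 to 5.04 in deletion mice, and 4 of the 13 were under the median on all arrays. Over the deletion mice it had r = 0.76 with Foxo3, 0.83 with Hsd3b6, 0.76 with Trim59, 0.69 with Lrat and 0.49 with Enpp6. Of 14 adipocyte genes 1 rose, and of 14 Schwann cell and 12 fibroblast genes 0 changed in limma, with 5 and 1 at an unadjusted p under 0.05. The part of cell numbers in the members' differences was not tested.

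Liver transcripts were high in some animals of both groups. Alb, the albumin gene, was above 10 in controls 2 and 7 (11.2 and 11.1) and in deletion mice 1, 2, 4 and 5 (11.7, 11.2, 11.6 and just over 10), and at most 8.18 in the other 10 mice. Those 4 deletion mice had the 4 highest Trp53i11 values of their group, whereas controls 2 and 7 read 7.59 and 7.90, near the bottom and the middle of theirs. The mean of 18 hepatocyte genes had r = 0.83 with Trp53i11 and 0.77 with Lrat over the deletion mice. Without the 6 mice, the difference of Trp53i11 was 0.69 (SE 0.19), of Foxo3 0.39 (SE 0.15), of Trim59 1.39 (SE 0.46) and of Enpp6 1.56 (SE 0.23). The value was 1.81 times smaller for Trp53i11. The deletion mice left were 3, 6, 7 and 8, of which 7 and 8 were the lowest of their group for Trp53i11 with all mice in. Lrat was then at least 1.52-fold higher and Hsd3b6 at least 10.7-fold. The part of liver RNA in them was not tested.

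**Figure D5:**
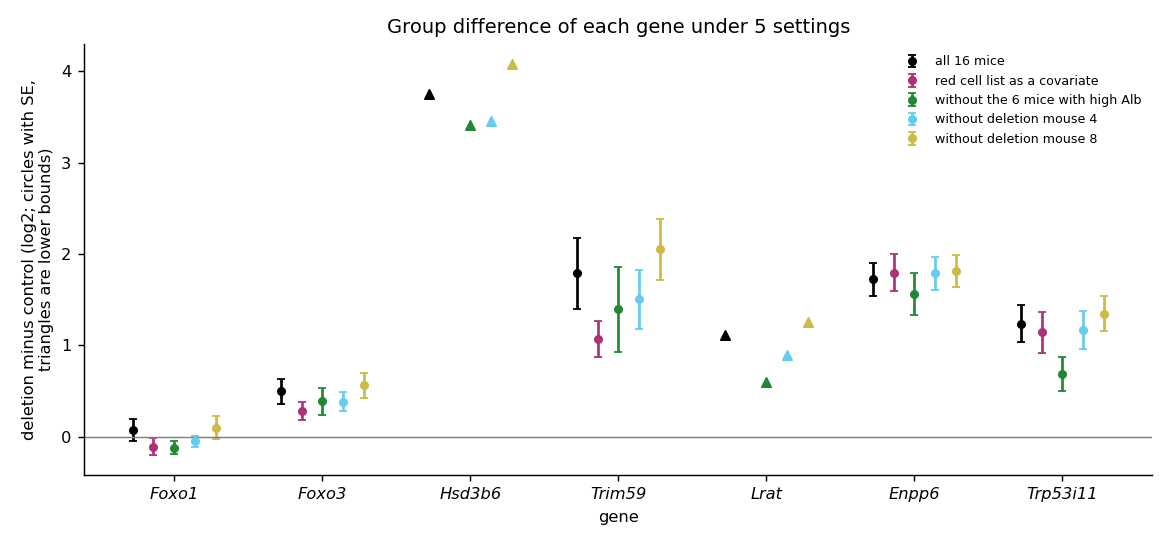
Deletion minus control difference of each gene (log2, circles with SE bars, triangles for the lower bounds of Hsd3b6 and Lrat, which have none for the covariate) with all 16 mice, with the red cell mean as a covariate, without the 6 mice with high Alb, and without deletion mouse 4 or 8. The 5 induced genes and Foxo3 stay above 0 in each setting, and Foxo1 lies on either side of it.

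With 1.83% of all genes passing, other genes of the FoxO pathway were counted against that share. Of 44 FoxO target genes tested 0 rose and 0 fell in limma, with 4 at an unadjusted p under 0.05 (17.3% of all genes) and a median difference of -0.01. Ddit4, an inhibitor of mTOR complex 1, had the smallest p (6.29 in controls, 7.08 in deletion mice, limma adjusted p = 0.088). Trim63, the muscle atrophy ligase MuRF1, differed by -0.29 (SE 0.11, limma adjusted p = 0.192). Of 34 upstream regulators tested, among them the AKT and 14-3-3 genes, 0 rose and 0 fell in limma, and 5 had an unadjusted p under 0.05. Ywhaq, a 14-3-3 protein, came nearest (difference 0.43, SE 0.12, limma adjusted p = 0.076). Leaving out mouse 8, 2 of the FoxO targets and 1 of the regulators rose, and leaving out control 1, 1 of the regulators.

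By position, 4 of the 7 genes (Foxo1, Hsd3b6, Trim59 and Lrat) lie on chromosome 3, with Foxo3 on 10, Enpp6 on 8 and Trp53i11 on 2. Of 629 other genes tested on chromosome 3, 15 passed in limma (2.38%), against 1.83% of all genes. The 3 nearest tested genes on each side of each member made 42 neighbours, of which 0 passed in limma. Of these 42 neighbours 16 had an unadjusted limma p under 0.05, a larger share than the 17.3% over all genes. Their differences ran from -0.25 for Setd7, near Foxo1, to 0.66 for Sfrp2, near Lrat, with a median of 0.02. Wars2 and Zfp697, on either side of Hsd3b6, differed by 0.01 (SE 0.06) and 0.23 (SE 0.11), and Smc4 and Kpna4, on either side of Trim59, by 0.07 (SE 0.11) and -0.18 (SE 0.05).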

How the data were processed

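Each of 16 mice gave 1 array of gastrocnemius RNA. Probe set values had been put on a log2 scale by the authors, using RMA from oligo (no version named) per the submitters' processing notes. RMA brings arrays to one distribution and compresses dim differences. No array build or scan date was at hand. Precision depends on how many mice there were.

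Probe sets with 1 gene symbol were named (23521 of 41345), the brightest per gene was used, and genes above the array median in at least 8 mice were tested (13601). The test was limma's (version 3.58.1, under R 4.3.3), two-sided, with Benjamini-Hochberg adjustment over all genes and a threshold of 0.05; SEs are limma's, except the plain one of the second Foxo1 probe set. Correlation tests in controls were exact permutations. The members and gene lists were chosen with earlier results of these data known. Named besides the members were Foxo4, Foxo6, the Hsd3b family, up to 3 passing genes per pathway list and direction or the smallest p values where none passed, the 3 nearest tested genes on each side, and the 3 most similar genes (for Foxo3 also the 5 most and 3 least similar in deletion mice); a few of these are printed, chosen after their values were seen. Alb, the red cell list and the glucocorticoid list were added after values were seen. Alternatives were other filters, centring, quantile normalization, probe set means, array weights, a trended robust variance, a replicate block, leaving out each mouse, a red cell covariate and leaving out mice with high Alb. The procedure was tested on simulated data. Figures were drawn with matplotlib 3.10.9.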

Additional observations from a re-analysis of the deposited data

Results flagged for a closer look

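Of 20 groups of 8 values examined (8 probe sets and 2 added gene lists, in each group of mice), 3 held an animal whose gap to its nearest neighbour took more of the range than Dixon's 95% critical value allows. Chance alone flags about 1 in 20 independent groups, a rate that cannot be applied here. The glucocorticoid list was added after values were seen and holds Fkbp5, which was already known to peak in mouse 4. The groups also include the floor readings of Hsd3b6 and Lrat in controls. Foxo1 in deletion mouse 4 read 8.23 on its brighter probe set, with the next mouse at 7.41. The mean of the glucocorticoid-responsive genes was 8.80 in the same mouse, with the next at 8.09. In the controls that mean was lowest in control 7, at 7.57, with the next at 7.77. The peak of mouse 4 was absent from the second Foxo1 probe set.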

How the results depend on the processing

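The 5 induced genes and Foxo3 kept a positive difference under every alternative run on them; Foxo1 reversed with the red cell covariate (-0.11), without the 6 mice with high Alb (-0.12) and without deletion mouse 4 (-0.052), and ran from -0.052 to 0.12 on leaving out 1 mouse each. The count of 249 genes became 137 with no filter, 505 at an adjusted p under 0.10, 62 with the red cell covariate and 7 without the 6 mice with high Alb (both added after the data were seen; the second leaves 10 mice), and ran from 107 to 680 on leaving out 1 mouse each. With the replicate number as a replicate block it was 213; same-numbered mice deviated together at r of -0.08 to 0.25 and 3 of 8 numbers matched best with their own, so the numbers do not pair the mice. The 2 members without overlap became 1 with a filter at the 75th percentile, which drops Hsd3b6, Lrat and Foxo3, and 2 to 4 on leaving out 1 mouse each. Separation over all genes was not counted in these settings. The median r of Foxo3 with the 5 induced genes, 0.90, was 0.74 by ranks, 0.62 without deletion mice 4 and 8 (added later), and 0.76 to 0.92 on leaving out 1 mouse each. In the controls 0 pairs passed under each alternative, the lowest adjusted exact permutation p lying between 0.077 and 0.395. The cause of these shifts was not tested. Fabp5, at a limma adjusted p of 0.089, and 9 other genes named for likeness or as markers lost their call without the mice with high Alb, and Plk2 kept it (0.042). Of 665 settings of 35 other results, 617 stayed the same, 33 moved, 12 lost the call and 3 reversed. The 35 include the raw differences of Hsd3b6 and Lrat, which rest on floor readings, beside their lower bounds. A difference or bound of a member counted as the same if it moved by less than the SD between mice. For a called gene or a control pair, it was enough to stay on the same side of the threshold. Correlations in the deletion mice had to stay within their leave-one-out SD. By this rule the smaller Foxo3 and Trim59 differences with the red cell covariate counted as the same. Levels under the array median have no order, so only the lower bounds are sizes for Hsd3b6 and Lrat.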
